A study of Mus musculus with 12 samples.

Results

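The Hippo pathway genes Lats1, Lats2, Nf2, Amot, Amotl2, Yap1, Wwtr1, Tead1, Tead2 and Tead4 were followed in RNA-seq of pooled mouse 8-cell embryos. They were taken by name, 10 of the 55401 genes listed, and all 10 passed the filter on low counts in every comparison. There were 12 libraries in 4 groups, each library made from 10 embryos. Control had 2 libraries, the Nr5a2 KD and the Klf5 KD had 3 each, and the Nr5a2 Klf5 dKD had 4. Embryos came from superovulated B6129F1 females of 3 to 5 weeks crossed with B6CBAF1 males. All were injected as zygotes with 150 ng/µl H2B-EGFP as an injection marker, together with non-targeting control siRNA at 15 µM, siRNA against Nr5a2 at 5 µM, siRNA against Klf5 at 10 µM, or siRNAs against both, whose concentrations in the mixture were not given in the sources used here. KD stands for siRNA-mediated knockdown and dKD for the double knockdown. NR5A2 is an orphan nuclear receptor and KLF5 a zinc finger transcription factor, and the comparisons ask which genes depend on either or both of them at the 8-cell stage. A knockdown leaves part of the mRNA, and a pool of whole embryos does not tell outer from inner cells.

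The Hippo pathway holds back a pair of transcriptional coactivators. When the kinases LATS1 and LATS2 are active, with help from NF2 and the angiomotins AMOT and AMOTL2 at cell junctions, they phosphorylate YAP (gene Yap1) and TAZ (gene Wwtr1), which then stay out of the nucleus. When the kinases are silent, YAP and TAZ enter the nucleus and bind TEAD factors on DNA. In the mouse embryo, polarised outer cells keep the kinases silent, and YAP with TEAD4 turns on trophectoderm genes there. Inner cells, in which angiomotins activate LATS, keep the coactivators out. Much of this control acts on the proteins, through phosphorylation and location, which mRNA does not measure.

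Promoter sequences bear on which factors could act near the genes, so the windows that held a motif are shown first. RefSeq (GRCm38.p6) gave 11 windows for 8 of the 10 genes, each running from 250 bases before a transcription start to 50 bases after it, and no entry was used for Tead1 and Tead4. Motifs were searched on both strands: AAGGTCA, which NR5A2 binds, the looser AAGGNCA, which takes in the first, CACACCC, which KLF factors bind, and GGAATG, which TEAD factors bind. The TEAD letters were in 5 of the 11 windows, from the genes Lats2, Wwtr1, Yap1 and Amotl2, against 14.7% of all 32851 promoter windows. AAGGTCA was in 0 of the 11 windows (4.72% of all windows), CACACCC also in 0 (7.95%), and AAGGNCA in 1, of Amot (20.3%). A match describes the letters of this window, and nothing was measured on binding here. A second window of Wwtr1 (chr3:57575827-57576126) overlaps the one shown, holds the same TEAD letters and is not printed. The windows are printed 5′ to 3′ on the strand of the gene to 30 bases after the start, with the motif in capitals. For Lats2, on the minus strand at chr14:57746094-57746373, GGAATG began 4 bases after the start. This window also holds the 5′ end of Gm49361, at 57746103, a gene on the same strand that shares exons with Lats2. The Lats2 gene itself reaches further upstream, to 57758388. For Wwtr1, minus strand at chr3:57575881-57576160, and Yap1, minus strand at chr9:8004567-8004846, it lay upstream of the start. For Amotl2, plus strand at chr9:102717554-102717833, the match was on the other strand and reads CATTCC. For Amot, minus strand at chrX:145487610-145487889, the capitals mark the looser NR5A2 letters.
Lats2: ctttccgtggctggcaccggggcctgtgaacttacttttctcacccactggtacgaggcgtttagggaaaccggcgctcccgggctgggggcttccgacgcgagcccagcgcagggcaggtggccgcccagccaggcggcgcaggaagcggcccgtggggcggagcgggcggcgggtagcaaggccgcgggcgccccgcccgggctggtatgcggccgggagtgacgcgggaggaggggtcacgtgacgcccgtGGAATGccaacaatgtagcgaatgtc
Wwtr1: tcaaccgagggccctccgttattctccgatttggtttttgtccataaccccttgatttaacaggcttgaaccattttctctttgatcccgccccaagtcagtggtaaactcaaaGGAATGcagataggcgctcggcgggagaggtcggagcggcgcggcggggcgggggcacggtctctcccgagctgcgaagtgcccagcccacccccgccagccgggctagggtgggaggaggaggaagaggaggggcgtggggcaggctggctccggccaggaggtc
Yap1: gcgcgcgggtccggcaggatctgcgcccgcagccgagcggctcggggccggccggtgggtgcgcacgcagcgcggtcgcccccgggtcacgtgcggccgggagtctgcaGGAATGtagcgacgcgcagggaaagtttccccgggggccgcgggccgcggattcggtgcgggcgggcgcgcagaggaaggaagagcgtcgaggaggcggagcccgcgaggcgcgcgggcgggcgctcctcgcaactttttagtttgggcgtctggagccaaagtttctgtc
Amotl2: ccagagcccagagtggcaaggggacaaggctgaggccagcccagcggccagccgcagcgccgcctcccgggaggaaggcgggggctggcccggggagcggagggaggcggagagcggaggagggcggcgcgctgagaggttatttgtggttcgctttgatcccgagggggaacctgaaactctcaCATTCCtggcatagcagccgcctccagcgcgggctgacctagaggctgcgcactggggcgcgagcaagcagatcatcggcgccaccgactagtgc
Amot: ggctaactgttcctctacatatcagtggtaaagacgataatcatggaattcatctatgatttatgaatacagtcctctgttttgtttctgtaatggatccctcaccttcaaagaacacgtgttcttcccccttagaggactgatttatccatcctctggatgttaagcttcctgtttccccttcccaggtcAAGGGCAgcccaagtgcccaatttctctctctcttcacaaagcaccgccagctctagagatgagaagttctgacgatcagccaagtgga

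The libraries held 6676683 to 12560926 counts on genes. Values are given as CPM, the counts of a gene per 1000000 counts of a library, scaled by TMM factors. Nr5a2 mRNA was at 14.7% of control in Nr5a2 KD and 13.7% in dKD. Klf5 mRNA was at 24.5% of control in Klf5 KD and 12.3% in dKD, and also at 30.6% in Nr5a2 KD, so that group was low in both. A list of 8 genes was used as markers of 8-cell embryos, though Zscan4d is a 2-cell gene and Zp3 an oocyte gene. All 8 had counts in every group, but Zscan4d had 0, 15 and 0 counts in the libraries of Nr5a2 KD. None of the 8 was called against control in any knockdown. Their log2 fold changes were negative for 4 and positive for 4 in Nr5a2 KD (median 0.01), and for 5 and 3 in dKD (median -0.42). Among them Tfap2c was at 49.4% of control in Nr5a2 KD (adjusted p = 0.0246, edgeR, under 2-fold). Markers of cumulus and granulosa cells summed to 9.19 to 20.9 CPM in all libraries, with Ptx3 and Inhba at 0 throughout. Blood markers summed to 3.88 to 27.6 and were highest in dKD, where Hba-a1 was called higher, with Hbb-bs, Hbb-bt and Ptprc at 0 throughout. Their part in the results was not tested. Mitochondrially encoded genes took 12.9 and 13.2% of gene counts in control, but 4.41 to 12.8% in the knockdown libraries. The share therefore cannot be told apart from the knockdown in comparisons with control, also where it is used as a covariate. Levels between genes are given as CPM per kb of exon.

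Across the genes, Tead4 and Wwtr1 dominated in control. Tead4 encodes the TEAD factor needed for the trophectoderm, and stood at 27.2 ± 0.976 CPM per kb in control (SD, n = 2). Wwtr1, the gene for TAZ, followed at 13.4 ± 1.66 CPM per kb, and Yap1 stood at 3.81 ± 0.968. Lats2 was at 5.71 ± 0.103 CPM per kb and Lats1 at 3.12 ± 0.433. Nf2, Amot, Yap1, Lats1 and Amotl2 came after Lats2, from 4.67 down to 2.90 CPM per kb, and each overlapped its neighbour in that order. Tead1 at 1.35 and Tead2 at 0.948 CPM per kb were lowest and also overlapped each other. Of the summed TEAD mRNA per length, Tead4 made up 92.1% in control, 91.4% in Nr5a2 KD, 91.1% in Klf5 KD and 93.1% in dKD. Tead3 had no count in 10 of the 12 libraries, where a count of 0 allows up to 0.269 to 0.440 CPM.

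**Figure D1:**
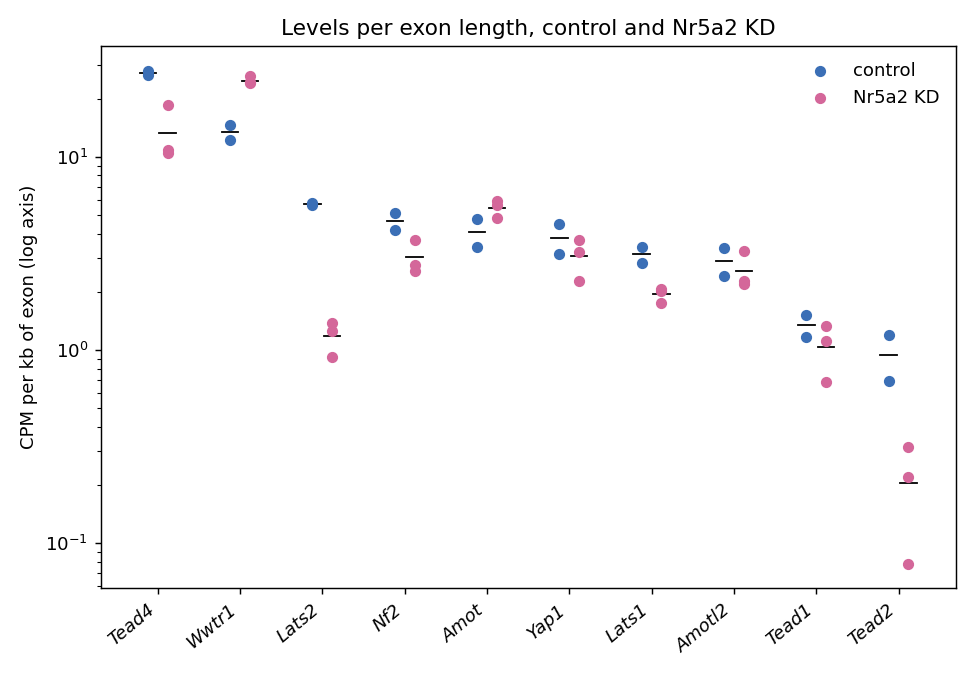
Level of each gene in CPM per kb of exon on a log axis, 1 point per library with the group mean as a bar, for the 2 control and 3 Nr5a2 KD libraries, ordered by the control mean. Tead4 led in control and Wwtr1 in Nr5a2 KD, and Lats2 was at 5.71 and 1.19 CPM per kb, or at 7.14 and 2.88 with the overlapping gene Gm49361 added, which is not drawn.

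In Nr5a2 KD the order changed at the top and in the middle. Wwtr1 stood first at 24.8 ± 1.14 CPM per kb (SD, n = 3) and Tead4 second at 13.3 ± 4.57, with no overlap between them. Lats2 was the third in control and the eighth here, at 1.19 ± 0.234 CPM per kb. That place depends on how reads are divided with Gm49361, a gene that shares exons with it. With both counted as 1 gene it was the third in control at 7.14 ± 0.258 CPM per kb (SD, n = 2) and the sixth here at 2.88 ± 0.227 (SD, n = 3), overlapping Yap1, Nf2 and Amotl2. Klf5 KD kept Tead4 first at 22.9 CPM per kb and Wwtr1 second at 12.8, while dKD had Wwtr1 first at 23.8 and Tead4 second at 15.5. Exon length here counts every annotated exon of a gene, so a gene read mostly as a short isoform looks lower per kb than it is.

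**Figure D2:**
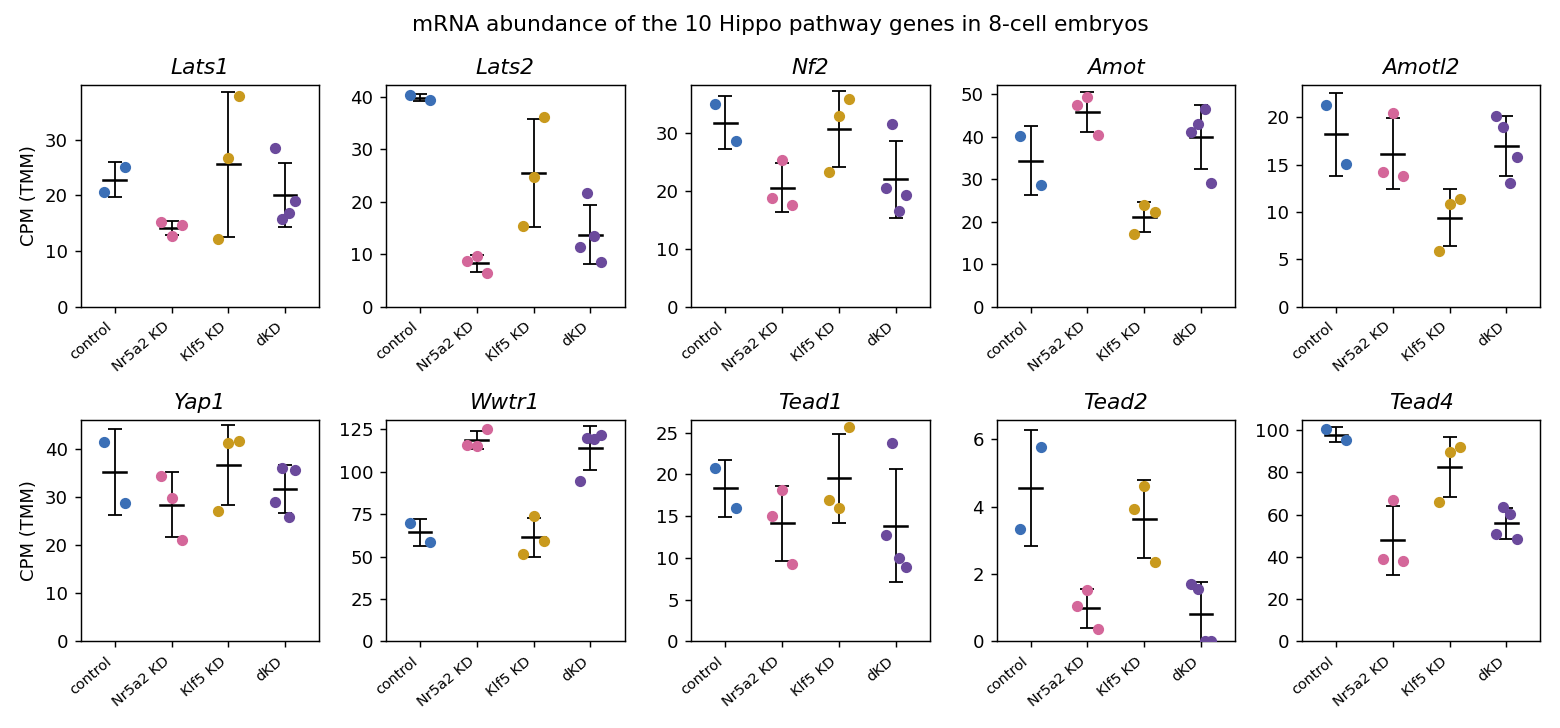
mRNA abundance of the 10 genes in CPM, 1 point per library in 4 groups (2 in control, 3 in each single knockdown, 4 in dKD), with bars for the mean and SD and axes from 0. Lats2 lay at 39.3 to 40.3 CPM in control and at 6.45 to 9.62 CPM in Nr5a2 KD, and Wwtr1 at 58.6 to 69.9 and 115.0 to 124.8 CPM.

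Lats2 and Tead4 were called lower after Nr5a2 knockdown, and Lats2 also in dKD. Wwtr1, higher in both groups, and Tead4, lower in dKD, passed the adjusted p but not the 2-fold minimum. In pools of whole embryos, fewer cells expressing a gene and less mRNA per cell cannot be told apart. Against control, edgeR's quasi-likelihood test called 2 of the 10 genes lower and none higher, where a call needed both an adjusted p below 0.05 and a 2-fold difference. Of all 13262 genes tested, 4.42% were called lower, 3.45% higher and 7.86% in either direction. The median log2 fold change was -0.48 over the 10 genes and 0.04 over all genes tested. Libraries of the groups did not overlap for 7 of the 10 genes, against 42.4% of all genes. In Klf5 KD none of the 10 was called, and of the 12838 genes tested 0 were (0%). This count does not show that no gene differed, since Klf5 itself, 4.09-fold lower, failed the adjustment there (adjusted p = 0.0996, edgeR), and without the filter on low counts 69 genes were called lower and 45 higher. There 2 of the 10 had an unadjusted p under 0.05, Amotl2 and Amot, against 8.47% of all genes, and DESeq2 called none of the 10 and 0.389% of all genes. Libraries of Klf5 KD and control did not overlap for 4 of the 10, against 27% of all genes. In dKD 1 of the 10, Lats2, was called lower, against 3.85% of 13724 genes called lower, 3.38% higher and 7.24% in either direction. With library sizes from counts of ERCC RNAs, which were added at lysis, the calls over all genes went from 586 lower and 457 higher to 90 and 761 in Nr5a2 KD, and from 529 and 464 to 178 and 2838 in dKD. The groups did not overlap for 4 of the 10, against 36.2% of all genes. The 3 comparisons share their control libraries. The plot of differences from control shows the estimates side by side.

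**Figure D3:**
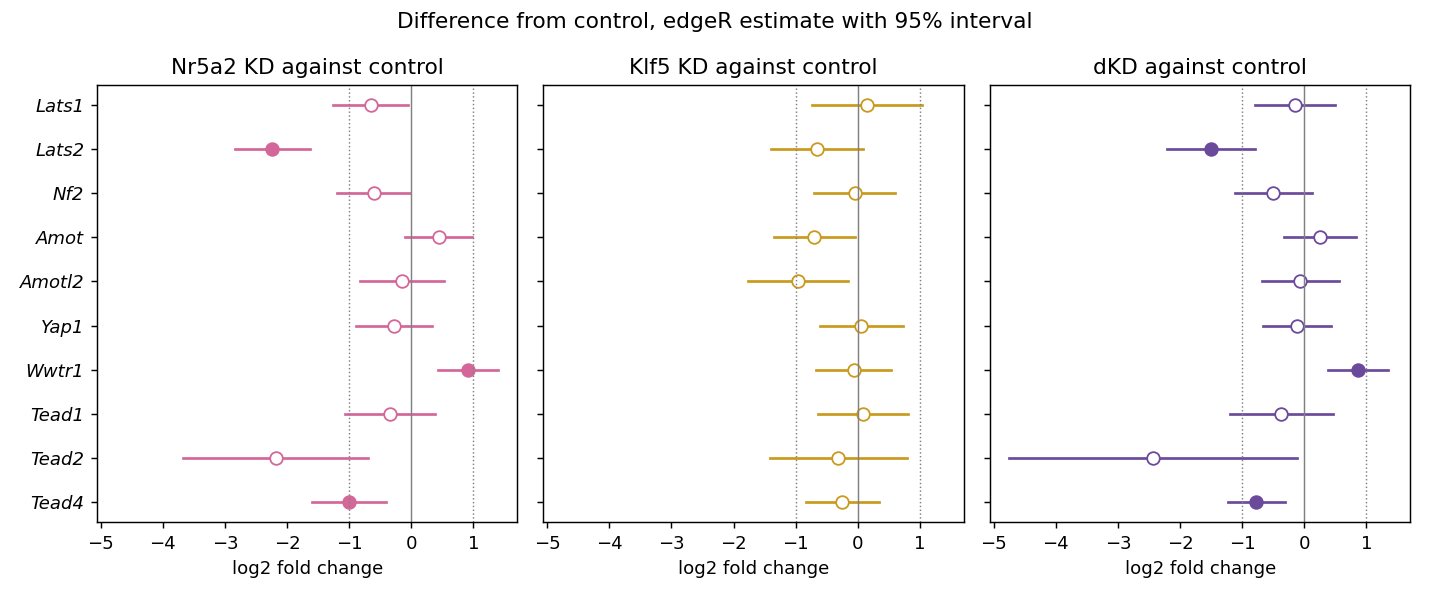
Log2 fold change of each gene against control, from edgeR with 95% intervals, in Nr5a2 KD, Klf5 KD and dKD, where filled points passed an adjusted p of 0.05 and dotted lines mark a 2-fold change. Lats2 lay at -2.24 in Nr5a2 KD and -1.50 in dKD, Wwtr1 at 0.91 and 0.87, and no point of Klf5 KD is filled.

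Of the kinases, Lats2 (chr14:57689662-57758388 on the minus strand of GRCm38) had 40.3 and 39.3 CPM in control. In Nr5a2 KD it had 8.71, 9.62 and 6.45 CPM, all below control and Klf5 KD. In dKD it had 11.4, 21.6, 13.4 and 8.42 CPM, all below control. Its log2 fold change was -2.24 in Nr5a2 KD (SE 0.276, adjusted p = 0.000838 with edgeR) and -1.50 in the dKD (SE 0.324, adjusted p = 0.0166), or 4.72-fold and 2.83-fold lower. With the mitochondrial share as a covariate the dKD call was lost (-1.21, adjusted p = 0.0565). With ERCC library sizes both calls were lost, at -1.52 (adjusted p = 0.0521, edgeR) and -0.78 (adjusted p = 0.0980). Relative to the median of all genes, Lats2 was then at -2.34 in Nr5a2 KD and -1.62 in dKD, against -2.28 and -1.56 with TMM. In Klf5 KD it had 15.4, 24.8 and 36.1 CPM, again below control, and the log2 fold change of -0.65 did not pass (SE 0.341, adjusted p = 0.617). Those 3 libraries had mitochondrial shares of 4.41, 8.28 and 11.8%, in the same order as Lats2, and with the same covariate the estimate was 0.04. Both control libraries, at 12.9 and 13.2%, lay above every knockdown library. The share and the knockdown can thus not be told apart in the fits against control. Without either control library, the dKD estimate was -1.49 or -1.51 and the call was lost (adjusted p = 0.122 without control replicate 1 and 0.123 without replicate 2, edgeR). Each of these fits had a single control library, taken to vary like those of dKD, and over all genes the calls went from 529 lower and 464 higher to 91 and 41, or 104 and 66.

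Lats2 shares 2955 bases of exon with Gm49361, a protein_coding gene on the same strand (chr14:57642077-57746103), and a read pair on shared exons counted in part for each. Gm49361 had 10.5 and 14.2 CPM in control and 11.8 to 13.8 CPM in Nr5a2 KD, with a log2 fold change of 0.07 that did not pass (adjusted p = 0.926, edgeR). It had 7.77 to 11.8 CPM in dKD. Summed, the pair had 50.8 and 53.5 CPM in control, 19.2 to 22.5 CPM in Nr5a2 KD and 16.2 to 31.8 CPM in dKD. Counted as 1 gene, they were still called lower, with log2 fold changes of -1.28 in Nr5a2 KD (adjusted p = 0.00612) and -1.13 in dKD (adjusted p = 0.0269). The size of the Lats2 decrease therefore depends on how shared reads are divided, and its direction was the same both ways.

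Lats1, the second LATS kinase (chr10:7681214-7716460), had 20.6 and 25.0 CPM in control and 15.2, 12.8 and 14.7 CPM in Nr5a2 KD. The groups did not overlap, but the log2 fold change of -0.66 did not pass (SE 0.278, adjusted p = 0.172, edgeR). In Klf5 KD it spread from 12.1 to 37.9 CPM and in dKD from 15.8 to 28.5 CPM, overlapping control in both. Nf2, which encodes the scaffold merlin that recruits LATS to the membrane (chr11:4765845-4849536), had 35.1 and 28.6 CPM in control and 18.8, 25.4 and 17.5 CPM in Nr5a2 KD. Its log2 fold change was -0.60 (SE 0.269, adjusted p = 0.195, edgeR), and in Klf5 KD and dKD it overlapped control.

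The ratio of the LATS paralogs, taken within each library and so free of scaling between libraries, was lower in Nr5a2 KD than in control. In control the log2 ratio of Lats2 to Lats1 per length was 1.03 and 0.71. In Nr5a2 KD it was -0.73, -0.34 and -1.11. In Klf5 KD it was 0.42, -0.04 and -0.01, below control and above Nr5a2 KD. In dKD it spread from -1.25 to 0.51, with 3 of 4 libraries below 0. With Gm49361 added to Lats2, over the 7303 bases of exon that either gene covers, the log2 ratio was 1.30 and 1.09 in control, 0.56, 0.74 and 0.39 in Nr5a2 KD, 1.21, 0.52 and 0.41 in Klf5 KD, and -0.52, 1.00, 0.58 and -0.23 in dKD. The libraries of Nr5a2 KD were thus below control both ways, and whether Lats2 fell below Lats1 there depends on how the shared reads are divided. Counted together, the difference between the means of Nr5a2 KD and control went from -1.60 to -0.63, and Klf5 KD then overlapped both groups.

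**Figure D4:**
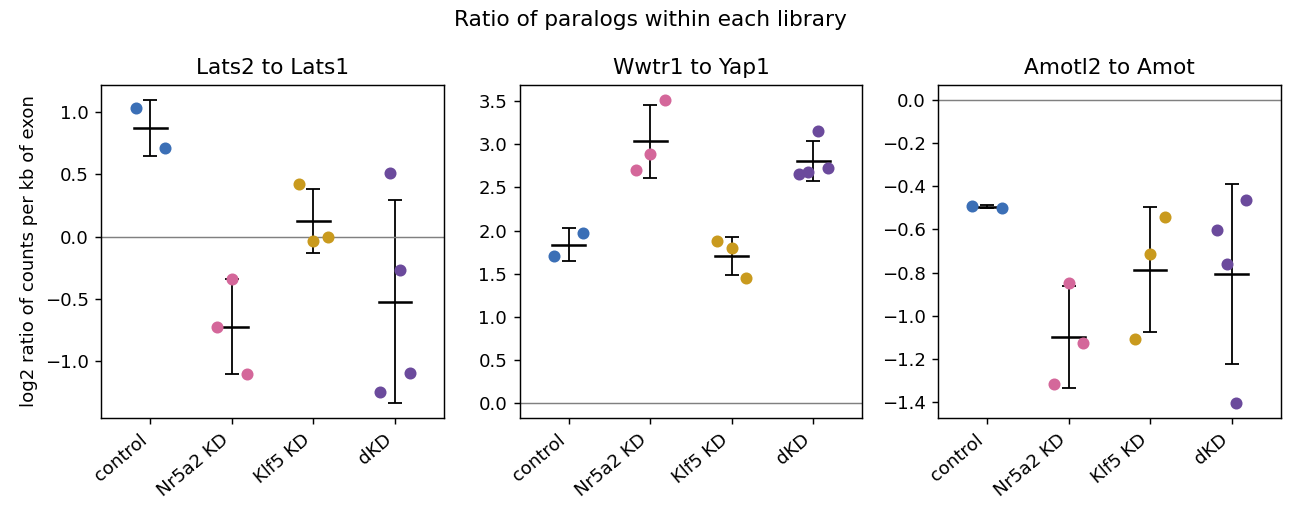
Log2 ratio of counts per kb of exon for 3 pairs of paralogs, 1 point per library with mean and SD per group (2 in control, 3 in each single knockdown, 4 in dKD). Lats2 to Lats1 was above 0 in control and below 0 in Nr5a2 KD, though above 0 in both with the overlapping gene Gm49361 added to Lats2, and Wwtr1 to Yap1 was at 1.70 to 1.97 in control and 2.70 to 3.51 in Nr5a2 KD.

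Of the coactivators, Wwtr1 (chr3:57455649-57575910) had 69.9 and 58.6 CPM in control, 51.4, 73.9 and 59.0 CPM in Klf5 KD, 115.8, 115.0 and 124.8 CPM in Nr5a2 KD, and 94.7, 119.9, 119.3 and 121.7 CPM in dKD. The 7 libraries given Nr5a2 siRNA were thus all above the 5 that were not. Its log2 fold change was 0.91 in Nr5a2 KD (SE 0.225, adjusted p = 0.0266, edgeR) and 0.87 in dKD (SE 0.219, adjusted p = 0.0332), or 1.88-fold and 1.82-fold, under the 2-fold minimum. With library sizes from total counts its log2 fold change was 1.03 and 1.01, and with those from ERCC counts 1.71 and 1.67. These scalings moved the median of all genes to 0.15 and 0.20, and to 0.82 and 0.84. Relative to that median Wwtr1 was at 0.87 and 0.82 with total counts and 0.89 and 0.82 with ERCC counts, under 2-fold. In Klf5 KD its log2 fold change was -0.06 (95% interval -0.66 to 0.54).

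Yap1 (chr9:7931999-8004596) overlapped control in every group. It shares 116 exon bases with Gm20416 on the other strand, and the counting used no strand. It had 41.6 and 28.9 CPM in control, 34.5, 30.0 and 21.1 CPM in Nr5a2 KD, 27.1 to 41.8 CPM in Klf5 KD and 26.0 to 36.2 CPM in dKD. Its log2 difference in Nr5a2 KD was -0.28 (95% interval -0.89 to 0.33), an interval within 2-fold in either direction. The log2 ratio of Wwtr1 to Yap1 was 1.84 ± 0.192 over the control libraries (SD, n = 2) and 1.71 ± 0.224 over those of Klf5 KD (SD, n = 3). With Nr5a2 siRNA it was 3.04 ± 0.425 alone (SD, n = 3) and 2.80 ± 0.233 in the double knockdown (SD, n = 4).

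Among the TEAD factors, Tead4 (chr6:128224288-128300823) had 100.4 and 95.4 CPM in control and 38.8, 66.8 and 37.8 CPM in Nr5a2 KD. Its log2 fold change of -1.01 (SE 0.273, adjusted p = 0.0393, edgeR) lay on the 2-fold minimum. The call was lost with a single control library, at log2 fold changes of -0.99 without replicate 1 and -1.04 without replicate 2 (adjusted p = 0.228 and 0.197), where the calls over all genes went from 586 lower and 457 higher to 206 and 114, or 184 and 120. It was also lost without Nr5a2 KD replicate 1 (-0.86) or 3 (-0.87), and with total counts (log2 fold change -0.90, adjusted p = 0.0770). With the mitochondrial share as a covariate, it was -0.67 (adjusted p = 0.178). In dKD Tead4 had 50.8, 63.6, 60.3 and 48.7 CPM, all below control, with a log2 fold change of -0.77 (SE 0.207, adjusted p = 0.0426), under 2-fold. With ERCC scaling it was 0.0066 in dKD and -0.31 in Nr5a2 KD, where the median of all genes moved to 0.84 and 0.82. In Klf5 KD it had 66.0, 89.6 and 91.9 CPM, and the difference did not pass.

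Tead2 (chr7:45215753-45233644) rested on few reads, and shares 13 exon bases with Cd37 on the other strand. It had 22 and 43 counts in control, 9, 11 and 3 in Nr5a2 KD, 43.8, 39 and 16 in Klf5 KD, and 13.5, 11, 0 and 0 in dKD. A count of 0 in the last 2 allows up to 0.354 and 0.353 CPM, for counting error only, and control had 3.33 and 5.76 CPM. Its log2 fold change came to -2.18 in Nr5a2 KD (SE 0.685, adjusted p = 0.0706, edgeR) and -2.44 in dKD (SE 1.06, adjusted p = 0.179), neither called. Without the filter on low counts both were called lower (adjusted p = 0.0299 and 0.0112). Tead1 (chr7:112679318-112906807) had 20.7 and 15.9 CPM in control and 9.27 to 18.1 CPM in Nr5a2 KD, and overlapped control in all groups.

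The angiomotins showed their lowest values in Klf5 KD. Amot, a junction protein that activates LATS in inner cells (chrX:145446425-145505181), had 40.1 and 28.6 CPM in control, 17.2, 23.8 and 22.3 CPM in Klf5 KD, 47.5, 49.3 and 40.3 CPM in Nr5a2 KD, and 41.0, 43.0, 46.4 and 29.1 CPM in dKD. All Klf5 KD libraries were below all others. Against control the log2 fold change was -0.70 (95% interval -1.36 to -0.05) and failed the adjustment (adjusted p = 0.565, edgeR). Amotl2 (chr9:102716672-102733418) had 21.3 and 15.1 CPM in control and 5.93, 10.8 and 11.4 CPM in Klf5 KD, with a log2 fold change of -0.96 (95% interval -1.76 to -0.16, adjusted p = 0.551). Nr5a2 KD and dKD overlapped control, at 13.8 to 20.5 and 13.1 to 20.2 CPM. Amotl2 had a correlation of 0.71 with the mitochondrial share over the 12 libraries, as a description, and its part in the difference was not tested apart from the covariate fit. Over the 13 alternatives that kept all libraries, the Klf5 KD estimates ran from -1.14 to -0.36 for Amotl2 and from -0.74 to -0.07 for Amot. The log2 ratio of Amotl2 to Amot was -0.50 ± 0.0073 in control (SD, n = 2), against -1.10 ± 0.236 after Nr5a2 knockdown (SD, n = 3) and -0.79 ± 0.291 after Klf5 knockdown (SD, n = 3). In dKD it was -0.81 ± 0.417 (SD, n = 4), where 1 library at -0.46 lay above both controls.

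The single knockdowns differed from each other in 2 of the 10 genes. In Klf5 KD against Nr5a2 KD, Lats2 was 3.02-fold higher (log2 fold change 1.60, SE 0.359, adjusted p = 0.0106, edgeR) and Amot was 2.20-fold lower (-1.14, SE 0.265, adjusted p = 0.0128), where 11.4% of 12668 genes were called in either direction. Wwtr1 was 1.95-fold lower in Klf5 KD (adjusted p = 0.0222). With Lats2 and Gm49361 counted as 1 gene only Amot was called. Without Nr5a2 KD replicate 1 or 2 only Lats2 was called. With ERCC library sizes none of the 10 was called, and calls over all genes went from 710 lower and 738 higher to 454 and 271.

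Adding Klf5 siRNA to Nr5a2 siRNA moved none of the 10 past the test. For dKD against Nr5a2 KD, edgeR called 0 of the 10 and 0 of 13017 genes (0%). Here too the count does not show that no gene differed, since Klf5 was 2.49-fold lower and failed the adjustment (unadjusted p = 0.000270 and adjusted p = 0.999, edgeR), and without the filter 17 genes were called lower and 3 higher. None of the 10 had an unadjusted p under 0.05, against 3.43% of all genes, and DESeq2 called none of them and 0.0307% of all genes. The widest gap was Lats2, at a log2 difference of 0.73 (95% interval -0.01 to 1.46). Wwtr1 differed by -0.05 (95% interval -0.46 to 0.35). The gap of Lats2 depends on how reads are divided with Gm49361. With both counted as 1 gene, the log2 fold changes against control were -1.28 in Nr5a2 KD and -1.13 in dKD. Their summed CPM overlapped, at 19.2 to 22.5 in Nr5a2 KD and 16.2 to 31.8 in dKD.

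Adding Nr5a2 siRNA to Klf5 siRNA called 0 of the 10 with edgeR at 2-fold, against 10.8% of 12904 genes. At an unadjusted p under 0.05 there were 6, Tead2, Tead4, Wwtr1, Lats2, Amot and Amotl2, against 26.6% of all genes, and DESeq2 called none of the 10 and 12.9% of all genes. Wwtr1 was 1.87-fold higher in dKD (adjusted p = 0.0200) and Amot 1.91-fold higher (adjusted p = 0.0296). Both passed the adjusted p without reaching 2-fold.

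The interaction asks whether the log2 change in dKD was the single knockdowns' changes added up. Fitted over the 12 libraries, it called 0 of the 10 with edgeR and 0 of 14830 genes (0%). At an unadjusted p under 0.05 there were 2, against 4.82% of all genes, and DESeq2 called none of the 10 and 0.0202% of all genes. They were Lats2, whose decrease in dKD was smaller than the sum by 1.38 (95% interval 0.31 to 2.45), and Amotl2, by 1.04 (95% interval 0.09 to 1.98). Neither passed the adjustment (adjusted p = 0.950). The value for Lats2 also depends on how reads are divided with Gm49361. With both counted as 1 gene, the log2 fold changes against control were -1.28 in Nr5a2 KD, -0.43 in Klf5 KD and -1.13 in dKD. The interaction was not fitted for that gene.

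Other genes of the pathway were counted in 5 lists that partly hold the 10 genes. Of 7 core kinases and adaptors, all were tested and 1 was lower in Nr5a2 KD and in dKD, which was Lats2, against 4.42% and 3.85% of all genes called lower. Mob1b and Mob1a, the adaptors of LATS, were its most abundant other genes in control, at 161.3 and 53.6 CPM. Of 16 upstream regulators and junction scaffolds, 14 were tested and none called in Nr5a2 KD, and 1 of 15 was higher in dKD, against 7.86% of all genes called in the first and 3.38% called higher in the second. That was Frmd6, a relative of merlin, at 0.756 and 3.21 CPM in control and 7.57 to 8.72 CPM in dKD (log2 fold change 2.05, SE 0.523, adjusted p = 0.0347, edgeR). The kinase Taok1 and the catenin Ctnna1 were the most abundant of the list, at 329.7 and 67.0 CPM in control.

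Of 7 genes listed as negative regulators of LATS, 6 were tested and 1 was lower in both groups with Nr5a2 siRNA, against 4.42% and 3.85% of all genes called lower. The estimates of 4 of the 6 were positive in both groups (median log2 fold change 0.51 in Nr5a2 KD and 0.35 in dKD). Among these was Rassf1, at 385% of control in Nr5a2 KD and 237% in dKD. It is better known as an activator of the pathway, so the list does not describe negative regulators alone. Ajuba, a LIM protein that binds LATS and holds back its activity, had 18.6 and 11.6 CPM in control, 3.29, 2.20 and 2.63 CPM in Nr5a2 KD, and 1.18 to 7.06 CPM in dKD. Its log2 fold change was -2.44 in Nr5a2 KD (SE 0.398, adjusted p = 0.00366, edgeR) and -2.01 in dKD (SE 0.514, adjusted p = 0.0350). Lats2 and this restraint of LATS were thus called lower in the same groups. Strn3 and Ppp2r1a, parts of a phosphatase complex, were the most abundant, at 213.8 and 19.0 CPM in control.

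Of 10 coactivators, TEADs and cofactors, 6 were tested. In Nr5a2 KD 1 was lower, Tead4, and in dKD none was called, against 7.86% and 7.24% of all genes. Besides the members named here, Vgll4 was most abundant in control at 2.85 CPM. Of 12 genes that YAP and TEAD are known to activate, 9 were tested, Lats2 among them. In Nr5a2 KD 1 was lower and 2 higher, and in dKD 1 lower and 1 higher. The shares over all genes tested were 4.42% called lower and 3.45% called higher in the single knockdown, and 3.85% and 3.38% in the double. The lower gene was Lats2 in both. Krt8 and Krt18, the keratins of the trophectoderm, were higher in Nr5a2 KD, with log2 fold changes of 2.21 (SE 0.440, adjusted p = 0.0100, edgeR) and 2.68 (SE 0.635, adjusted p = 0.0221). Krt8 had 2.87 and 2.81 CPM in control and 18.1, 8.52 and 12.3 CPM in Nr5a2 KD. Krt18 spread more in control, at 0.454 and 2.945 CPM, and had 11.2, 7.14 and 14.5 CPM in Nr5a2 KD. In dKD Krt18 overlapped control, at 1.41 to 5.93 CPM. Ccn1, a secreted matrix protein, had 0.907 and 1.34 CPM in control and 4.24 to 7.90 CPM in dKD (log2 fold change 2.35, SE 0.532, adjusted p = 0.0206). Birc5 was the most abundant target, at 456.7 CPM in control, and Myc came after Lats2, at 18.6 CPM. In Klf5 KD no gene of the 5 lists was called. The median log2 fold change of the targets was 0.83 in Nr5a2 KD and 0.97 in dKD, with 4 of the 9 negative and 5 positive in each, and that of all genes tested was 0.04 and 0.05. Many of these genes sat at a few CPM, and keratins have near-identical copies elsewhere in the genome, so their counts are less certain.

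Some of the 10 genes moved together from library to library. Over the 12 libraries, Pearson's r of log2 CPM was 0.925 for Tead4 with Lats2, 0.851 for Tead4 with Nf2 and 0.854 for Lats2 with Nf2. Wwtr1 ran against Lats2 at -0.735 and against Tead4 at -0.728. Amot went with Wwtr1 at 0.784 and with Amotl2 at 0.779. These points share the groups themselves and the depth and scaling of each library, so they are descriptions. Among 6558 genes with a mean of at least 10 CPM, those most like Tead4 were Rcor1, Map7 and Plcd3 at 0.950, 0.945 and 0.942. Those most like Lats2 were Papola, Sos1 and Serpinc1, at 0.952, 0.944 and 0.940.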

How the data were processed

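Poly(A) RNA of 12 libraries of pooled 8-cell embryos was measured with a SMART-seq kit and sequenced as read pairs on a NovaSeq per the methods, where the labels also name an AVITI instrument and assign neither to a library. Per the labels and headers, the authors trimmed reads with Trim Galore 0.6.2, aligned them by STAR to GRCm38 extended by ERCC and H2B-EGFP sequences, and used featureCounts 2.0.1 to count pairs over exons of Ensembl 102, without strand. The headers name a filtered alignment, and the text of the methods writes another genome number. Values were deposited as estimated counts, unscaled, because a pair on several genes is split between them. Of the values, 7.3 to 8.66% per library were not whole, and all were rounded here. No molecular identifiers were used, so limits derived from counts hold for counting error alone.

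Groups were compared in pairs with edgeR 4.0.16 (R 4.3.3): filterByExpr (minimum count 10, minimum total 15), TMM, glmQLFit and glmQLFTest, with Benjamini-Hochberg adjustment over all genes tested and a call at an adjusted p under 0.05 and 2-fold. The interaction used 12 libraries and no fold minimum. Intervals are 95%. Ratios added 0.5 counts, and correlations were taken on log2 CPM (prior count 2). Labels do not say whether libraries come from separate experiments, so p-values measure the spread between these libraries. Genes were named by identifier from GENCODE M21, with 55141 of 55401 matched, and all 10 had the same position in both. The scripts were tested on simulated data. The members, lists and motifs were chosen with earlier results of these data known. Genes named are the 10, pathway genes called against control, the 2 most abundant others of each list in control, and the 3 genes most correlated with each called member.

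Between Nr5a2 KD and dKD, deviations from the group means correlated for equal replicate numbers (0.129, 0.222 and 0.254), though replicate 3 of Nr5a2 KD correlated more with replicate 4 of dKD (0.264). The replicate block left dKD against Nr5a2 KD at 0 of the 10 genes called. Other groups shared only numbers. Alternatives were DESeq2 1.42.0, TMM replaced by its size factors, by total counts or by ERCC counts, no filter or one at a mean of 50 normalized counts, a joint fit of all libraries, the block, the mitochondrial share as a covariate, an unadjusted p, no fold minimum, and each library left out. Counting Lats2 and Gm49361 as 1 gene, also in its level per kb and the ratio to Lats1, was added after seeing the data. Figures used matplotlib 3.10.9. Other assays of the study were not used here.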

Additional observations from a re-analysis of the deposited data

Results flagged for a closer look

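Wwtr1 in dKD had 1 library apart from the other three. Replicate 1 stood at 94.7 CPM and the others at 119.3, 119.9 and 121.7 CPM, so the gap to the nearest library took 0.91 of the whole range of the group, above Dixon's 95% critical value for 4 libraries. All 4 lay above the control libraries, at 58.6 and 69.9 CPM. Groups of 2 or 3 libraries were not checked. The 10 genes were looked at in dKD, and chance alone gives such a gap in about 1 in 20 groups.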

How the results depend on the processing

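Of the 10 genes, 2 were called in Nr5a2 KD against control. The count was 1 with ERCC library sizes (Wwtr1 in place of Lats2 and Tead4), 1 with the filter at a mean of 50 normalized counts, 1 once the mitochondrial share was a covariate, and 1 to 2 with a library left out. It was 3 without the filter on low counts and at an unadjusted p (Tead2 added) and 3 without the fold minimum (Wwtr1 added), and total counts gave 2 with Wwtr1 in place of Tead4. The replicate block also gave 1, since Tead4 was then at -0.93, and it changed no other count of members called. For dKD against control the count was 1, and it was 2 with total counts, 1 with ERCC sizes (Wwtr1 in place of Lats2), 2 without the filter on low counts, 0 with the mitochondrial covariate, 2 at an unadjusted p, 3 without the fold minimum, and 0 to 1 with a library left out. For dKD against Klf5 KD the count was 0, and it was 3 with total counts, 1 without the filter, 1 with the mitochondrial covariate (Lats2, -1.01), 1 at an unadjusted p, 2 without the fold minimum, and 0 to 1 with a library left out. For Klf5 KD against Nr5a2 KD the count was 2, and it was 0 with ERCC sizes, 1 with Lats2 and Gm49361 as 1 gene, 3 with DESeq2 and at an unadjusted p (Tead2 added), 3 with total counts, the filter at a mean of 50 and no fold minimum (Wwtr1 added), and 1 to 3 with a library left out. The interaction gave 2 at an unadjusted p. Klf5 KD against control and dKD against Nr5a2 KD stayed at 0 under every alternative run. Over all genes, Klf5 KD against control called 146 lower and 107 higher with the replicate block, and 69 and 45 without the filter, against 0 in either direction. The block took dKD against Klf5 KD from 698 lower and 694 higher to 288 and 244. The cause of these changes was not tested.

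With ERCC sizes the direction turned in Nr5a2 KD for Tead1 (0.32), Yap1 (0.42), Lats1 (0.15), Nf2 (0.12) and Amotl2 (0.57), in Klf5 KD for Tead2 (0.43), Tead4 (0.39), Wwtr1 (0.60) and Nf2 (0.57), and in dKD for Tead1 (0.32), Tead4 (0.0066), Yap1 (0.67), Lats1 (0.64), Nf2 (0.24) and Amotl2 (0.69). All of these stayed below the median of all genes, which ERCC sizes moved to 0.82, 0.66 and 0.84. With the mitochondrial covariate it turned in Nr5a2 KD for Tead1 (0.11), Yap1 (0.0030) and Amotl2 (0.0991), in Klf5 KD for Lats2 (0.0425), Tead4 (0.0250), Wwtr1 (0.0476) and Nf2 (0.31), and in dKD for Tead1 (0.0704) and Amotl2 (0.15). The replicate block turned Tead1 (-0.13), Yap1 (-0.0370) and Lats1 (-0.32) in Klf5 KD and Amotl2 (0.14) in dKD. Total counts turned Yap1 (0.0371) and Amotl2 (0.0840) in dKD, and Yap1 in dKD against Klf5 KD (0.0149). With a library left out, Klf5 KD turned for Tead1 (-0.14 to 0.31), Tead2 (-0.62 to 0.16), Yap1 (-0.17 to 0.36), Wwtr1 (-0.21 to 0.0887), Lats1 (-0.24 to 0.48) and Nf2 (-0.18 to 0.12). Nr5a2 KD then turned for Amotl2 (-0.37 to 0.11), dKD for Yap1 (-0.35 to 0.17), Lats1 (-0.36 to 0.0087) and Amotl2 (-0.28 to 0.20), and dKD against Klf5 KD for Lats1 (-0.65 to 0.0546). None of these genes had been called in that comparison. Lats2 in Nr5a2 KD kept its call except with ERCC sizes (-1.52, adjusted p = 0.0521, edgeR). Lats2 in dKD lost it with ERCC sizes (-0.78, adjusted p = 0.0980, while relative to the median of all genes both estimates moved by less than 0.1), with the mitochondrial covariate (-1.21, adjusted p = 0.0565) and without either control library, where the estimate stayed at -1.49 or -1.51 and the lone control library was assumed to vary like the other group. Counting Lats2 and Gm49361 as 1 gene moved the difference of the log2 ratio of Lats2 to Lats1 from control to -0.63 in Nr5a2 KD and -0.49 in Klf5 KD. Tead2, with at most 43.8 counts, was not tested at a mean of at least 50 counts. The 95% interval against control reached from -4.75 to -0.12 for Tead2 in dKD, where 2 of the 4 libraries had 0 counts.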
